A study of Mus musculus with 22 samples.

Results

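Liver RNA of adult mice fasted for 24 h was compared between 4 mice with an induced Tcf7l2 deletion, labelled LTCF4KO, and 4 control mice. These 8 arrays are all those of the series that carry the titles for fasted knockout and fasted control liver, out of 22 in all. The other arrays measured 6 fed adult livers and 8 newborn livers, and the newborn ones were not used here. All 8 mice were C57BL/6 and homozygous for a floxed Tcf7l2 allele (Tcf7l2loxp/loxp), and all were given tamoxifen at 3 weeks of age and studied 1 to 2 months later, so the allele and the drug are shared by both groups. The knockout genotype adds SA-CreERT2, a Cre recombinase that tamoxifen activates. The labels name neither the tissue in which this driver is active nor the exons removed. The 4 livers of each group are given as biological replicates. The p-values measure the spread between livers within groups, estimated from these 8 and the 6 fed livers together. Each array was hybridised with 1 liver RNA, labelled with Cy3, and with a commercial mouse reference RNA, labelled with Cy5, and no array had the dyes swapped. The values below are log2 ratios of liver over reference, so a difference of 1 between groups is a 2-fold difference.

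Tcf7l2 encodes a transcription factor, also called TCF4, that binds beta-catenin and carries canonical Wnt signalling to DNA. In adult liver this signalling is active in the hepatocytes around the central vein, the pericentral zone, which make glutamine from ammonia and hold many drug-metabolising cytochromes. Hepatocytes around the portal tract, the periportal zone, carry more of the urea cycle and of gluconeogenesis, and during a fast the liver makes glucose and ketone bodies and burns fatty acids.

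Transcripts that were lower in the knockout livers included Wnt targets such as Sp5 and Lgr5 and pericentral genes of glutamine and ammonia handling such as Glul and Oat, beside many genes in none of the lists examined. Among 17184 genes tested, 86 (0.500%) passed a Benjamini-Hochberg adjusted p of 0.05 in limma, of which 65 (0.378%) were lower and 21 (0.122%) higher in the knockouts. The largest falls were those of Sp5, Lhpp, Slc1a2, Cyp2c38, Oat and Tbx3, and the largest rises those of 3 neighbouring cytochrome genes, Cyp2b9, Cyp2b10 and Cyp2b13. Of the 86, 64 differed by at least 2-fold, 53 of them lower and 11 higher, and in 84 of the 86 the ranges of the 4 knockouts and the 4 controls were separate, against 6.40% of all genes tested. The median difference over all genes was 0.01. This split of the calls depended on the background step: with the scanner's outlying local backgrounds kept as they were, 150 genes were called higher and 29 lower, the median of all genes stood at 0.14, and 79 of the 86 genes kept their sign. Further probes that passed the filter existed for 28 of the 86 genes, and 34 of these 37 probes had the sign of the first; 14 of them passed the test over all 25133 probes, in which 0.434% did.

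On the fasted arrays 50.2% to 62% of spots were well above background in the liver channel, and no spot was saturated there. The arrays lay on 2 slides, each with 2 livers of either genotype, and were scanned on 1 day. On the first principal component, with 32.8% of the variance, knockouts 1 and 2 stood at 40.8 and 36.2 and the other 6 livers between -28.2 and 1.8. Markers of tissues beside the liver were found in 3 livers. The mean log2 ratio of 8 exocrine pancreas genes was 5.17 in knockout 2 and 4.81 in knockout 3 against 0.03 to 0.30 elsewhere, and that of 7 skeletal muscle genes was 2.91 in control 1 and 2.92 in knockout 3 against -0.94 to -0.55 elsewhere. Without knockouts 2 and 3, 49 genes were called and without control 1 and knockout 3, 67; of the 86 genes 40 and 47 stayed among them, and all 86 kept their sign in both. The 8 hepatocyte markers on the array had a median difference of -0.01, and none of them was called. Their mean log2 ratio was 5.83 to 6.27 on the 8 arrays. Above 4 the reference signal moved with the liver, as given below, so the ratio can hide a change. In the liver channel alone, described below, their median was 0.15, with 7 of 8 above 0 and none called.

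Tcf7l2 itself did not fall on the array. Its brightest probe, at chr19:56007586-56007645 of mm9, gave -0.13, 0.09, 0.03 and -0.10 in the controls and 0.63, -0.15, 0.22 and 0.57 in the knockouts, with overlapping ranges. The difference was 0.35 ± 0.17 (SE), with an adjusted p of 0.49 in limma. The probe at chr19:55982975-55983034 differed by -0.07 and that at chr19:56006460-56006519 by 0.02. The removed exons are unknown here, so these probes may lie outside them and check nothing about the deletion; the groups are called by their labels throughout.

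Of 17 listed Wnt feedback and target genes that passed the filter, 5 fell, Sp5, Lgr5, Tbx3, Tnfrsf19 and Notum, and none rose. Of the 17, 12 were below 0, the ranges of 5 were separate and lower (3.46% of all genes), and the median difference was -0.45 against 0.01 over all genes. Axin2, Wif1 and Nkd2, also listed, were not well above background on enough arrays to be tested. Sp5 encodes a zinc finger repressor that is itself switched on by Wnt signalling. Its log2 ratio was 4.03, 4.02, 5.26 and 4.14 in the controls and -0.14, -0.40, -0.42 and -0.30 in the knockouts. All 4 controls were far above all 4 knockouts, where the liver signal was not well above background on any array. The means were 4.36 ± 0.60 and -0.32 ± 0.13 (SD, n = 4 each), the difference -4.68 ± 0.24 (SE) and the adjusted p in limma 3.6e-07. For such genes the fold is a lower bound, set from the controls' normalised liver signal against, on each knockout array, the higher of the gene's own signal and the lowest signal counted as above background; for Sp5 it was at least 14.5-fold.

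Lgr5, the receptor for R-spondins that amplifies Wnt signalling, gave 3.26, 3.97, 1.73 and 3.43 in the controls and -0.14, -0.13, 0.03 and 0.06 in the knockouts. Control 3 was the lowest control, still above every knockout, and no knockout array was well above background. Lgr5 was at least 5.63-fold lower, with a fitted difference of -3.14 ± 0.34 and an adjusted p in limma of 0.000475. Tbx3, a T-box repressor of pericentral hepatocytes, was at 1.90, 2.64, 2.86 and 2.62 in the controls and at -2.12, -2.08, -0.70 and -0.15 in the knockouts. The ranges were separate, and knockouts 1 and 2 were lower than knockouts 3 and 4. The difference was -3.77 ± 0.42 (adjusted p = 0.000532, limma), a 13.6-fold fall. Tnfrsf19, a receptor of the TNF family, fell by 1.96 on the log2 scale (adjusted p = 4.92e-05, limma) with 4 separate controls at 0.23, 0.88, 0.57 and 0.45 against -1.26, -1.57, -1.26 and -1.60. Notum, which encodes a secreted enzyme that inactivates Wnt ligands, fell by 1.84 (adjusted p = 0.0108, limma).

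The membrane ubiquitin ligases Rnf43 and Znrf3, which clear Wnt receptors and are themselves Wnt targets, did not pass. Rnf43 was 2.01, 2.76, 2.64 and 2.35 in the controls and 0.53, 0.27, 1.64 and 2.24 in the knockouts. Knockouts 1, 2 and 3 lay below the controls while knockout 4 lay among them. The difference was -1.27 (adjusted p = 0.155, limma), and -1.63 with an adjusted p of 0.019 without knockout 4. Znrf3 differed by -0.57 (adjusted p = 0.123, limma; 0.0337 with the slide as a block). Sox9, a transcription factor of bile duct cells, pointed upward, with -0.91, -0.78, -0.92 and -0.77 in the controls and 2.29, 1.52, -0.01 and -0.10 in the knockouts. All 4 knockouts exceeded all 4 controls, but knockouts 1 and 2 far more than the others, and the adjusted p was 0.126 (0.0476 without knockout 4 and 0.0448 with the slide as a block, limma). In the same 2 knockouts the mean of 9 cholangiocyte markers was -1.31 and -1.41 against -2.21 to -1.93 elsewhere, and the part of these cells in the Sox9 values was not tested. Among 16 genes for TCF/LEF factors and partners of beta-catenin none was called, with a median of 0.06. Rnf43, Znrf3 and Sox9 were taken up after their values were seen.

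**Figure D1:**
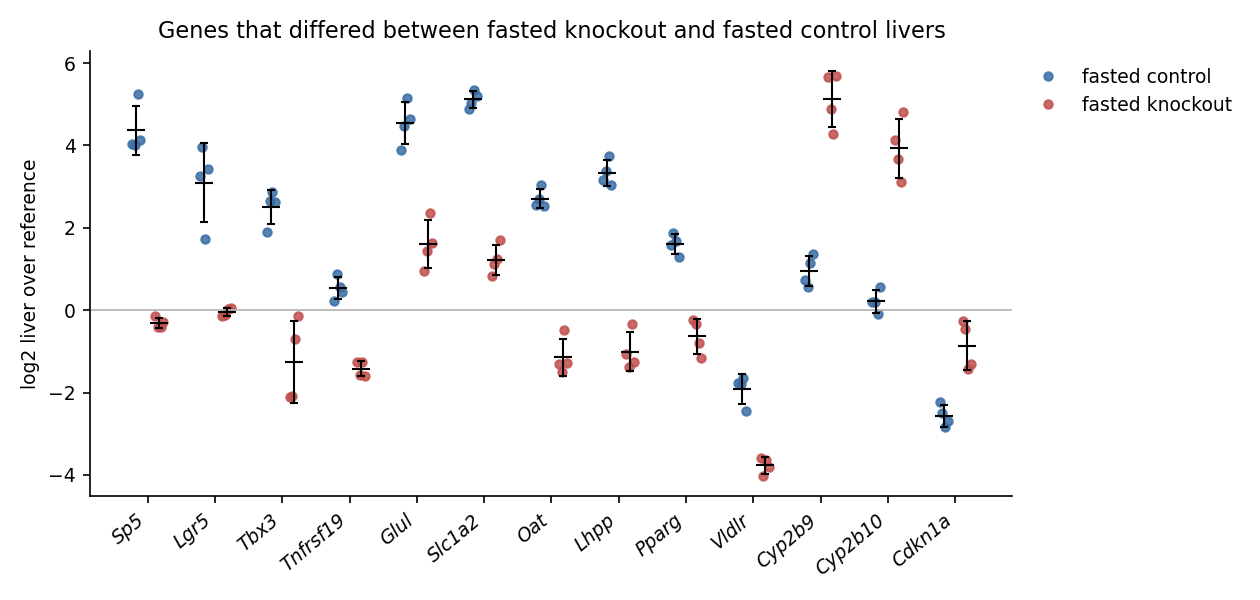
Log2 ratio of liver over reference for selected genes on each of the 8 fasted arrays, with 4 control and 4 knockout points per gene and horizontal lines at the group means. In Sp5, Lgr5, Tbx3 and the glutamine genes every control lies above every knockout, in Cyp2b9, Cyp2b10 and Cdkn1a every knockout above every control.

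TCF/LEF factors bind the letters CTTTGAT or CTTTGAA. These were searched on both strands of RefSeq promoters of GRCm38.p6, from 250 bases before to 50 after each start site. Among the genes that fell, 43 had a promoter in the table and 8 of them (18.6%) held a match, against 852 of 11396 tested genes (7.48%). Counted per promoter, the shares were 9 of 63 (14.3%) and 903 of 14426 (6.26%). None of the 17 genes that rose and had a promoter held a match. A match describes letters and not a binding site. The 4 genes that fell with the form CTTTGAT are shown, as they pair a named letter pattern with a measured fall; each sequence is the 250 bases before the start site on the gene's strand, with the match in capitals.
Sp5: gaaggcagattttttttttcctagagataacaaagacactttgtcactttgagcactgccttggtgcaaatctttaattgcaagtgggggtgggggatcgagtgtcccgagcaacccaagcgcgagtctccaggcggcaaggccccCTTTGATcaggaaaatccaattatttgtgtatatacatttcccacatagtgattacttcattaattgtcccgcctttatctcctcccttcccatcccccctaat
Acot1: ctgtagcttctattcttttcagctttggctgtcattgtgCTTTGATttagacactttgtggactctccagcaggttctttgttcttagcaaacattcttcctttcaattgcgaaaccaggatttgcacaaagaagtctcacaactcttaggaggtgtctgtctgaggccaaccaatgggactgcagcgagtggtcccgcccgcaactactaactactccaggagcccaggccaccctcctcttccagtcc
Slc1a2: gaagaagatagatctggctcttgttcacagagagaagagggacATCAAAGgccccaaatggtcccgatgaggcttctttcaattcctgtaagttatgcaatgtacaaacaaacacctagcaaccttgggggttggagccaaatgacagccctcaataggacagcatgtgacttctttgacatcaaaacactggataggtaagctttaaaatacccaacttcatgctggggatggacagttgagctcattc
Tnfrsf19: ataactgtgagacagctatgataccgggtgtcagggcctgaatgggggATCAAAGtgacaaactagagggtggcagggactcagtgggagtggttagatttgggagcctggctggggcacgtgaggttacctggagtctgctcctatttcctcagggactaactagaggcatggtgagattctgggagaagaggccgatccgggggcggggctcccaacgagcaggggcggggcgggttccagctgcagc
The Sp5 sequence is chr2:70474673-70474922 (plus strand, match from position -104 relative to the start site), and that of Acot1 is chr12:84009252-84009501 (plus strand, -211). The sequence of Slc1a2 is chr2:102706188-102706437 (plus strand, -207), and that of Tnfrsf19 is chr14:61037988-61038237 (minus strand, -202). In the latter pair the letters ATCAAAG are CTTTGAT read on the opposite strand. The form CTTTGAA stood in the promoters of Blvrb, Igdcc3, Kif26b and Tsc22d1.

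Of 10 pericentral genes listed under glutamine and ammonia handling 6 fell and none rose, with a median of -2.58. Over all genes tested 0.378% fell, and the median was 0.01. The list also holds Lhpp, a phosphatase, and Slc13a3, a dicarboxylate transporter. It was chosen with earlier results of these data known, so its count and median are only a description. Glul, glutamine synthetase, which joins ammonia to glutamate in the hepatocytes nearest the central vein, gave 3.90, 4.47, 5.14 and 4.64 in the controls and 0.96, 1.44, 2.36 and 1.63 in the knockouts. Every knockout was below every control. The means were 4.54 ± 0.51 and 1.60 ± 0.58 (SD, n = 4 each), a fall of 2.94 ± 0.31 on the log2 scale or 7.68-fold (adjusted p = 0.000319, limma). Its 2 further probes fell by 1.84 and 2.31.

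Slc1a2, the glutamate transporter GLT-1, was at 4.89, 5.03, 5.34 and 5.21 in the controls and at 0.83, 1.11, 1.24 and 1.70 in the knockouts. The groups did not overlap, and the difference was -3.90 ± 0.18 (adjusted p = 2.6e-07, limma). Of the other Slc1a2 probes, 3 were bright enough to test, and they fell by 6.23, 4.61 and 3.18. Oat, ornithine aminotransferase, which turns ornithine towards glutamate, was at 2.56, 2.71, 3.05 and 2.52 against -1.32, -1.50, -0.49 and -1.28. Each control exceeded each knockout, and the fall was 14.5-fold, with a difference of -3.86 ± 0.23 (adjusted p = 1.02e-06, limma). Rhbg, an ammonium transporter, was at 4.91, 5.53, 4.10 and 3.76 in the controls and at 1.75, 1.83, 1.80 and 1.71 in the knockouts. The knockouts were close together and below all controls, with a difference of -2.80 ± 0.44 (adjusted p = 0.00973, limma). Slc13a3, a sodium-coupled dicarboxylate transporter, was above background on no knockout array. Its ratio differed by -2.35 ± 0.19 (adjusted p = 3.08e-05, limma), and its liver signal, on a scale of its own, was at least 5.53-fold lower; its reference signal was lower too.

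Lhpp, a phosphatase, lies beside Oat on chromosome 7 and fell with it. It was at 3.15, 3.39, 3.74 and 3.03 in the controls and at -1.07, -1.38, -0.33 and -1.25 in the knockouts. In both genes knockout 3 was the highest knockout and control 3 the highest control. The difference was -4.33 ± 0.23 (adjusted p = 4.42e-07, limma), a 20.2-fold fall. The 2 unannotated transcripts probed between them also fell. NAP094000-001 was above background on no knockout array and at least 2.69-fold lower (fitted difference -1.47, adjusted p = 0.00508, limma). 8030488J09Rik fell by 2.20 (adjusted p = 0.0105, limma). The probes of these 4 transcripts start at 139749726, 139761611, 139767193 and 139898005 of chromosome 7 (mm9). The 4 listed genes of this group that were not called, Gpt, Gpt2, Slc1a4 and Car14, differed by 0.01, 0.27, -0.09 and 0.22.

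Other pericentral enzymes split by how the arrays were read. In the ratio, 4 of 21 listed genes fell, none rose, and the median was -0.10. Cyp2c38, an arachidonate-metabolising cytochrome, was at 4.65, 5.41, 3.89 and 2.76 in the controls and at 0.31, 0.26, 0.37 and 0.33 in the knockouts. No knockout was above background, and the gene was at least 8.3-fold lower (fitted difference -3.86 ± 0.46, adjusted p = 0.00106, limma). Aldh3a2, a fatty aldehyde dehydrogenase, was at 3.35, 3.95, 4.03 and 3.53 in the controls and at 0.32, 0.48, 0.91 and 0.11 in the knockouts. The groups were separate, with a difference of -3.26 ± 0.19 or 9.55-fold (adjusted p = 9.68e-07, limma). Ces2b, a carboxylesterase, fell by 3.15 (adjusted p = 3.08e-05, limma), and Tbx3, given above, is the other listed gene that fell. Outside the list, the retinol dehydrogenase gene Rdh9 fell by 2.91 (adjusted p = 3.08e-05), although its second probe gave 0.61, 3.40, 3.34 and 3.79 in the knockouts and was not called. The glutathione transferase gene Gstm2 fell by 1.52 (adjusted p = 0.0115, limma). Cyp2e1, the ethanol-oxidising cytochrome, was at 5.98, 6.07, 6.38 and 6.18 in the controls and 5.40, 5.49, 5.83 and 5.71 in the knockouts. Its ranges were separate, yet its adjusted p was 0.14 for a difference of -0.54. Its liver signals overlapped, at 82200, 94400, 86200 and 104000 in the controls and 39800, 26500, 99300 and 87800 in the knockouts.

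Where the liver signal far exceeded the reference, the reference channel was not constant between the genotypes. The same reference RNA was put on every array, so its signal should not depend on the genotype of the liver. Among genes with both channels above background on all 8 arrays and at least a 2-fold difference in the liver channel, the median shift of the reference grew with the ratio. In the 85 genes with a mean ratio below 0 the median shift of the reference was 0.07 of the liver shift, in the 112 genes between 0 and 2 it was 0.15, and in the 61 genes between 2 and 4 it was 0.17. In the 51 genes above 4 it was 0.83, and all 51 reference signals moved the way of the liver; the ratio of Cyp2e1 lies in this range. The reference moved by at least 0.5 of the liver shift in 3 of the 85, 23 of the 112, 12 of the 61 and 36 of the 51 genes, so it did so for some genes at lower ratios too. Over all genes the reference channel alone gave 4 calls (0.0233%), Slc1a2 at -4.19, Slc13a3 at -3.64, Cyp1a2 at -3.08 and Ang at -1.40. Beside the knockouts the reference signal of Slc1a2 was 114 to 128 over local backgrounds of 83 to 96. For Slc13a3 it was 99 to 106 over 86 to 96. The sizes given for these genes rest on signals near background and are imprecise. What moved the reference was not tested.

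Cyp1a2, a pericentral cytochrome that oxidises caffeine, shows the pattern in the scanner's median signals. Its liver signals were 19900, 9870, 12600 and 9420 in the controls and 922, 1230, 2260 and 2660 in the knockouts, all far above local backgrounds of 24 to 28. Its reference signals were 5510, 2800, 3200 and 2450 beside the controls and 324, 398, 682 and 719 beside the knockouts. In either channel every control exceeded every knockout, and the ratio, at 3.65 to 4.11 in the controls and 3.83 to 4.09 in the knockouts, overlapped. The ratio differed by 0.06 ± 0.16 (adjusted p = 0.941, limma). The liver channel alone, the scanner's processed liver signal over each array's 75th percentile, differed by -2.58 ± 0.26, or 5.97-fold (adjusted p = 0.000335, limma). Glul shows the other case: its liver signals were 16500, 18900, 10900 and 20900 against 736, 1940, 3580 and 2180, and its reference signals, at 3970, 3510, 1300 and 3490 against 1850, 2970, 3080 and 3040, overlapped between genotypes through control 3. Over the array's 75th percentile the reference signal of Glul was lower in every knockout, by 0.30 ± 0.06 (adjusted p = 0.234, limma), against -3.21 in the liver channel.

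**Figure D2:**
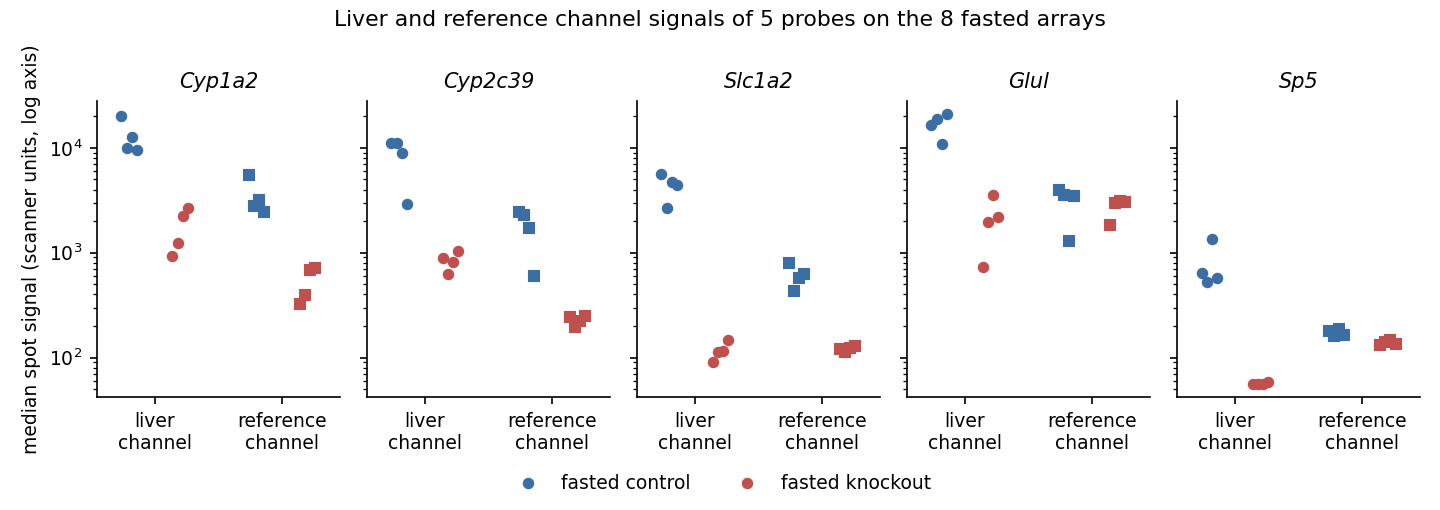
Median spot signal on a log axis in the liver channel (circles) and the reference channel (squares) on each of the 8 fasted arrays for 5 genes. In Cyp1a2, Cyp2c39, Slc1a2 and Sp5 the reference signals are lower beside the knockout livers than beside the control livers. Those of Sp5 are 132 to 146 against 159 to 189, over local backgrounds of 82 to 88. In Glul the reference signals overlap through control 3.

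Read by the liver channel alone, 67 genes were called (0.390%), 53 lower (0.308%) and 14 higher (0.0815%). Of these, 46 were also called in the ratio and 21 were not, and 40 genes were called in the ratio alone. All 86 genes called in the ratio had the same sign in the liver channel. Genes called in the ratio alone included Cyp2b9, at 4.76 in the liver channel (adjusted p = 0.0565), Cyp2b13 (0.0551), Cdkn1a, at 1.92 (0.0569), Bdh2, at 0.85 (0.0675), and Rhbg, at -3.34 (0.0675, limma). Acot1, Nsdhl, Serpina7, Snhg3 and Miip were among them too, with adjusted p of 0.0546, 0.0675, 0.344, 0.06 and 0.06, and in all 10 of these genes the ranges were separate in the liver channel. Of the 21 listed pericentral enzymes, 6 fell and 18 were below 0, with a median of -0.41 against 0.04 over all genes. The additions were Cyp1a2 and Gulo, which makes vitamin C in mice, at -1.22 (adjusted p = 0.00967, limma) against 0.18 in the ratio. Cyp2c39, a cytochrome next to Cyp2c38 in name and locus but not listed, had liver signals of 11200, 11100, 8870 and 2900 in the controls and 898, 626, 822 and 1030 in the knockouts. Every control was above every knockout. Its liver channel fell by 3.00 (adjusted p = 0.00651, limma), with -0.23 in the ratio.

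Of 21 listed periportal genes none was called in the ratio, with a median of 0.07, while in the liver channel 3 rose, none fell and 20 were above 0, with a median of 0.54. The reference channel had a median of 0.46 for the same genes. Other lists also lay mostly above 0 in the liver channel, without a call: 24 of 24 acute phase genes, with a median of 0.40, 31 of 32 respiratory chain genes (0.16) and 28 of 32 ribosomal protein genes (0.23). The 3 periportal genes were Etnppl, a phospholyase, at 1.79 (adjusted p = 0.0469), Hal, histidine ammonia-lyase, at 1.03 (adjusted p = 0.0461), and Hsd17b13, a lipid droplet enzyme, at 0.67 (adjusted p = 0.0469, limma). With the slide as a block Etnppl and Hsd17b13 were no longer called (0.0709 and 0.0702) and Hal still was (0.0131). In the ratio they stood at 0.57, 0.14 and -0.15. Gls2, the liver glutaminase that releases ammonia for the urea cycle, was at 4.50, 4.60, 4.44 and 4.58 in the controls and 4.90, 4.67, 4.83 and 4.86 in the knockouts. Its ranges were separate by a small step, with a difference of 0.28 and an adjusted p of 0.325. Cyp1a2, Cyp2c39, Gulo, Hal and Hsd17b13 were named after their values were seen.

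Genes for lipid uptake and storage fell in part. Of 21 listed genes for lipid droplets and lipoprotein uptake, 3 fell and none rose, with a median of -0.16. Pparg, the nuclear receptor that drives lipid storage genes, was at 1.59, 1.88, 1.67 and 1.28 in the controls and -0.25, -0.33, -0.81 and -1.16 in the knockouts. The groups were separate, with a difference of -2.25 ± 0.25 or 4.75-fold (adjusted p = 0.00062, limma). Vldlr, the very low density lipoprotein receptor, was at -1.78, -1.79, -1.65 and -2.45 against -3.59, -4.03, -3.63 and -3.82. Again no knockout reached a control, and the fall was 3.61-fold, with a difference of -1.85 ± 0.17 (adjusted p = 0.000114, limma). Fitm1, which helps form lipid droplets, fell by 2.04 (adjusted p = 0.0176, limma). That call was lost on leaving out any of controls 1, 2 and 3 or knockouts 1 and 2, with adjusted p up to 0.0655. Plin2, Cd36 and Cidec, classic droplet and uptake genes, gave -0.16, -0.59 and 0.88 and were not called.

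PPAR alpha is the receptor that switches on fatty acid oxidation in a fast. Of 24 of its listed targets 2 fell, Aldh3a2 and Acot1, none rose, and the median was -0.22. Acot1, an acyl-CoA thioesterase, was at 3.40, 4.50, 4.78 and 4.21 in the controls and 2.47, 0.78, 2.88 and 2.55 in the knockouts. Knockout 2 was the lowest, and the groups did not overlap, with a difference of -2.05 ± 0.40 (adjusted p = 0.0441, limma). Its neighbour Acot6, named after its value was seen, fell by 1.07 (adjusted p = 0.0133, limma). Acot1 was no longer called without control 2, 3 or 4 or knockout 1 (adjusted p up to 0.123), nor Acot6 without control 3 or knockout 1 or 2 (up to 0.0555). The 32 listed fatty acid oxidation and ketogenesis genes had no call, and 28 of them lay below 0, with a median of only -0.10. Ppara itself differed by 0.00. Fgf21, a fasting hormone made by the liver, was at 2.61, 2.60, 3.21 and 2.32 in the controls and at 0.90, 0.61, 2.96 and -0.05 in the knockouts. Only knockout 3 reached the controls; the adjusted p was 0.228 with it and 0.00289 without it, where the difference was -2.19 (limma).

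Cholesterol synthesis genes lay mostly below 0. Of 25 genes 22 were below 0, with a median of -0.40, but 1 fell, Nsdhl, a sterol dehydrogenase. It was at 0.50, 1.16, 0.65 and 1.22 in the controls and -0.21, -0.38, 0.05 and -0.28 in the knockouts. The ranges were separate, with a difference of -1.08 ± 0.21 and an adjusted p of 0.0459. This call was lost without any 1 array except control 1, with adjusted p up to 0.15. With the slide as a block 5 of the 25 fell, among them Fdps, farnesyl diphosphate synthase, at -1.16 (adjusted p = 0.14 without and 0.0141 with the block), and Mvk, mevalonate kinase, at -0.75 (0.0967 and 0.0208, limma). Insig1, also regulated by sterols, differed by -0.43 and was not called.

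Fasting glucose production, as far as its transcripts were measured here, gave no call in the ratio. Of 25 genes for gluconeogenesis and its regulators none passed, with a median of 0.05; Pck1 was not analysed here. G6pc, glucose-6-phosphatase, the last step of glucose output, was at 4.71, 4.98, 4.75 and 4.95 in the controls and 4.89, 4.76, 4.77 and 4.83 in the knockouts. The groups overlapped, with a difference of -0.04 ± 0.10 (adjusted p = 0.95, limma) in the ratio and 0.41 in the liver channel, so its sign depended on the reading. Its ratio is among those above 4, where the reference channel moved with the liver. Got1, the cytosolic aspartate aminotransferase, was at 1.45, 0.89, 1.15 and 0.50 in the controls and at 1.87, 1.53, 1.91 and 1.87 in the knockouts. All knockouts were above all controls, though the adjusted p was 0.161 for a difference of 0.80. In the liver channel 1 gene of this list fell, Aqp9, the glycerol channel of hepatocytes, by 0.89 (adjusted p = 0.0291, limma), with -0.07 in the ratio. In the ratio no call was made among 25 urea cycle and amino acid genes or 23 of glycolysis, glycogen and fructose metabolism. Nor was any made among 20 of fatty acid synthesis or 23 of bile acid synthesis and transport. Their medians were 0.01, 0.07, 0.10 and -0.05. The urea cycle and bile acid lists had mean ratios of 5.22 to 5.44 and 4.35 to 4.84, in the range above 4 where a change can be hidden. In the liver channel 1 urea cycle or amino acid gene rose, none fell and 18 of 25 were above 0, with a median of 0.16. The other lists had no call there. Scd1, the stearoyl-CoA desaturase, differed by 0.77 in the ratio (adjusted p = 0.25, limma). Of 21 FOXO and insulin response genes none was called, with a median of 0.06. G6pc and Aqp9 were named after their values were seen.

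**Figure D3:**
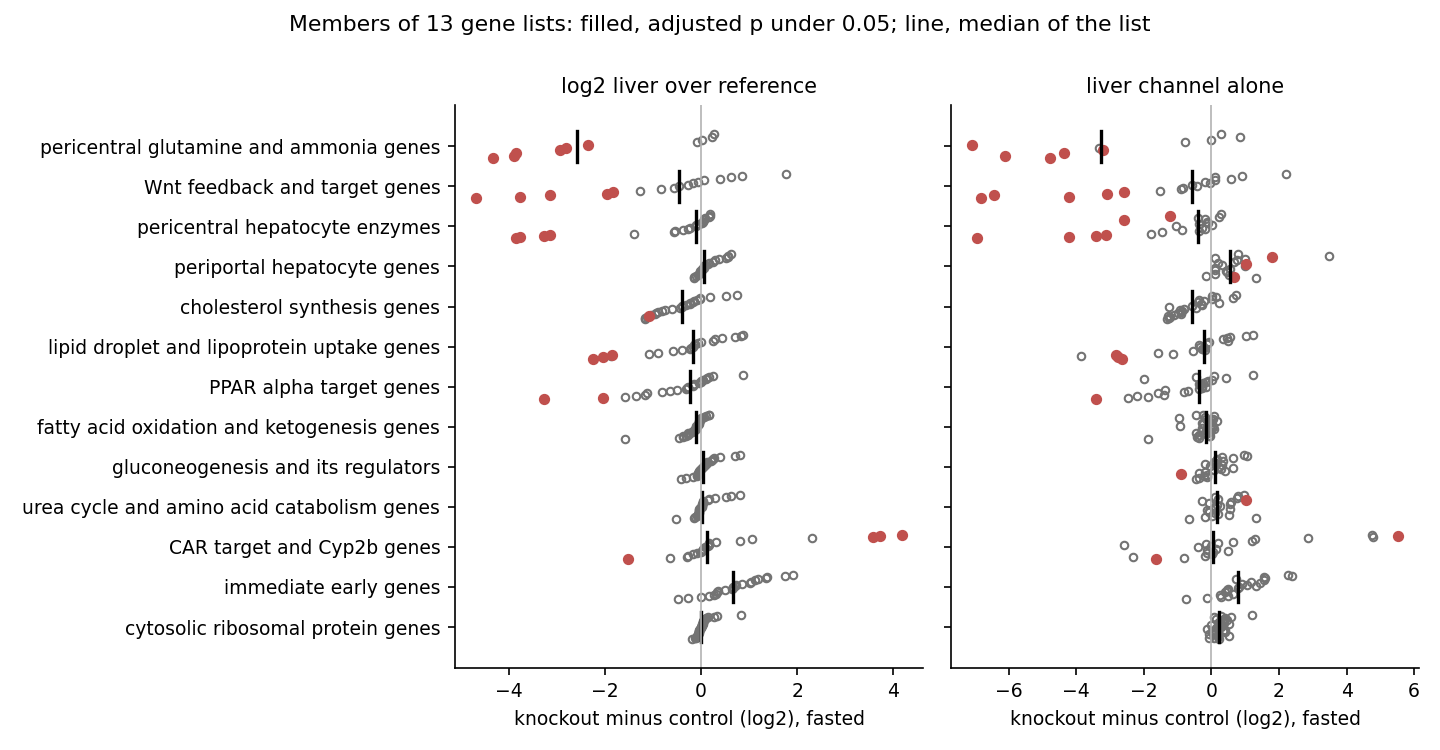
Difference between fasted knockout and fasted control (log2) of each member of selected gene lists, in the ratio (left) and in the liver channel alone (right), with filled points for adjusted p under 0.05 and a line at each list's median. The glutamine and ammonia list has the lowest median in both panels, and the periportal list has a median of 0.07 on the left and 0.54 on the right.

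The rises were led by Cyp2b cytochromes, enzymes that oxidise drugs and steroids. Cyp2b10 among them is a classic target of the nuclear receptor CAR. Cyp2b9 was at 0.72, 0.57, 1.14 and 1.36 in the controls and at 5.66, 4.89, 4.28 and 5.69 in the knockouts. Every knockout was far above every control. The means were 0.95 ± 0.36 and 5.13 ± 0.68 (SD, n = 4 each), a rise of 4.18 ± 0.68 (SE) or 18.2-fold (adjusted p = 0.0122, limma). Its second probe differed by 1.17 and was not called (adjusted p = 0.481 over all probes). Cyp2b10 was at 0.19, 0.19, -0.10 and 0.56 in the controls, above background on 1 of 4, and at 4.14, 3.66, 3.12 and 4.81 in the knockouts. The groups were separate by over 2 log2 units, with a difference of 3.72 ± 0.47 (adjusted p = 0.00168, limma). A probe named ENSMUST00000005477, which the files describe as a Cyp2b10 transcript, rose by 2.78 (adjusted p = 0.0166, limma). Cyp2b13 rose by 3.58 ± 0.67 (adjusted p = 0.0332, limma), and its second probe differed by 0.18. The call of Cyp2b13 was lost without any 1 array except knockout 3 (adjusted p up to 0.102), and that of ENSMUST00000005477 without control 1, 2 or 3 or knockout 1 (up to 0.0631). The probes of Cyp2b10, ENSMUST00000005477, Cyp2b13 and Cyp2b9 start at 26702056, 26702417, 26873757 and 26995607 of chromosome 7 (mm9). In the fed controls they stood, in this order, at means of 0.54, 1.42, 3.63 and 5.59. The genes belong to 1 subfamily, and whether signal is shared between their probes was not tested.

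The rest of the list of CAR targets and Cyp2b genes did not follow. Of 22 genes 3 rose, the Cyp2b genes, and 1 fell, Gstm2, with a median of 0.12. Cyp3a11, Nr1i3 (CAR itself) and Por differed by 0.09, 0.03 and -0.27. Cyp2b9 and Cyp2b13 are also the 2 of 13 listed female-biased liver genes that rose, while the 15 male-biased genes had no call and a median of -0.02. The Y-linked genes Ddx3y, Eif2s3y and Kdm5d were above background on all 8 arrays, and Uty, also Y-linked, on 6. Sult1e1, an oestrogen sulfotransferase, differed by 2.30 without passing (adjusted p = 0.155).

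Cdkn1a, the cell cycle inhibitor p21, was at -2.24, -2.50, -2.84 and -2.70 in the controls and at -0.26, -0.45, -1.44 and -1.31 in the knockouts. All knockouts exceeded all controls, knockouts 1 and 2 most, with a rise of 1.71 ± 0.26 or 3.26-fold (adjusted p = 0.00818, limma). It was the only one of 18 p53 target genes called. Trp53inp1, another of them, was at 0.05, 1.44, 0.49 and 1.28 against 4.06, 3.38, 2.37 and 1.57. Its ranges were separate, knockouts 1 and 2 again highest, and the adjusted p was 0.0706 (0.0106 without knockout 4, limma). Mdm2, Ccng1, Bax and Trp53 differed by 0.19, 0.33, 0.08 and 0.01.

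Among the other genes that rose, Bdh2, a hydroxybutyrate dehydrogenase, gave 0.92 ± 0.12 (adjusted p = 0.00256, limma), with controls at 2.38, 2.42, 2.40 and 2.18 and knockouts at 3.48, 3.26, 2.89 and 3.42. The groups were separate, and a second Bdh2 probe rose by 0.65. Cryl1, a gulonate dehydrogenase, rose by 0.93 (adjusted p = 0.00654), Sdsl, a serine dehydratase-like enzyme, by 0.75 (adjusted p = 0.00818) and Sfxn1, a mitochondrial serine transporter, by 0.85 (adjusted p = 0.00135, limma). Snhg3, a host of small nucleolar RNAs, rose by 1.67, Miip by 1.16 and the chemokine gene Ccl9 by 1.05. Adrb1, Lrig1, Bcl2l1, Eif2b4 and Ephb4 rose by 0.81, 0.78, 0.67, 0.60 and 0.42. Of these, Miip kept its call whichever array was left out. The call of Snhg3 was lost without control 2, 3 or 4 or knockout 1 (adjusted p up to 0.0821), that of Ccl9 without any control or knockout 3 or 4 (up to 0.102) and that of Adrb1 without the same arrays (up to 0.115). Lrig1 was no longer called without controls 1, 2 or 3 or knockouts 1 or 3 (up to 0.102), Bcl2l1 without any control or knockout 2 or 3 (up to 0.101), Eif2b4 without any array but knockout 4 (up to 0.167), and Ephb4 without any array (up to 0.15). With the slide as a block Adrb1 and Ephb4 were not called (0.0593 and 0.056). Srrm4, a splicing factor gene chosen after its value was seen, rose by 1.53 (adjusted p = 0.0339) with overlapping ranges, and lost its call without controls 1, 2 or 3 or knockouts 1, 2 or 3 (up to 0.125).

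Outside the lists stood 62 of the 86 genes, and most of the larger falls among them held with any 1 array left out. Nxpe2 fell by 2.82, Olfr114 by 2.52, Rcan2, an inhibitor of calcineurin, by 2.48, and Aatk and Clstn3 by 2.25 each. Their adjusted p-values in limma were 0.00158, 3.08e-05, 0.00114, 0.000475 and 0.0077. Serpina7, which encodes thyroxine-binding globulin, was at 4.32, 3.97, 3.73 and 4.47 in the controls and 0.93, 3.52, 0.57 and 0.71 in the knockouts. Knockout 2 lay close to the controls and the other 3 far below. The difference was -2.69 ± 0.52 with an adjusted p of 0.0441, -3.38 with 4.08e-05 without knockout 2, and not called without any other 1 array (adjusted p up to 0.14, limma). Blvrb, biliverdin reductase B, fell by 1.79 (adjusted p = 0.00023), and Slc16a11, a monocarboxylate transporter, by 1.53 (adjusted p = 3.34e-05, limma). Genes chosen after their values were seen include Tenm3, which fell by 2.02 (adjusted p = 0.00125), Adgrg2, above background on no knockout array and at least 2.78-fold lower (adjusted p = 0.00343), Tlr5, the flagellin receptor, at -1.16 (0.00394), and Casp8, an initiator of apoptosis, at -0.60 (0.00859, limma). Car2, a carbonic anhydrase, fell by 1.07 (adjusted p = 0.0192), a call lost without control 2, 3 or 4 or knockout 1 or 2 (up to 0.0734). Olig1 had overlapping ranges at an adjusted p of 0.0441 and was not called without any of controls 1, 2 and 3 or knockouts 1, 2 and 3 (up to 0.142), nor with the slide as a block (0.0602).

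Called genes within 200 kb of one another on mm9 formed 10 neighbouring pairs, and in all 10 both members moved the same way. As 65 of the 86 genes fell, pairs drawn at random would often match too. The pairs are not independent, since those of the Oat and Lhpp locus and of the Cyp2b cluster share members. The pair of Cyp2b10 and ENSMUST00000005477, 0.302 kb apart, is described in the files as 1 gene. Outside these 2 regions the pairs included Notum with ENSMUST00000066154, 7.43 kb apart on chromosome 11. Acot1 with Acot6 (93.4 kb, chromosome 12) and Gba2 with Rgp1 (20.2 kb, chromosome 4) were others. ENSMUST00000066154 was at 4.03, 3.82, 4.02 and 3.83 in the controls and 0.18, 0.28, 1.33 and 1.14 in the knockouts. Its groups were far apart, and its fall of 3.19 ± 0.26 (adjusted p = 3.08e-05, limma) exceeded that of Notum. Gba2, a glucosylceramidase, fell by 1.13 and Rgp1 by 0.65 (adjusted p = 0.00325 and 0.00756, limma). These partners too were named after their values were seen.

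Immediate early and metallothionein genes varied among the knockout livers. None of 23 immediate early genes was called, although 20 lay above 0, with a median of 0.67. The list's mean was -2.39, -2.14, -2.20 and -2.0 in the controls and -0.82, -1.19, -1.63 and -2.20 in the knockouts, highest in knockouts 1 and 2 and within the control range in knockout 4. Knockout 4 was the lowest knockout in the metallothionein genes too. Mt2 was at -4.50, -3.27, -4.58 and -2.12 in the controls and 0.49, 1.45, 0.24 and -3.31 in the knockouts. In 3 knockouts it exceeded every control, while knockout 4 lay among them. The adjusted p was 0.121 with a difference of 3.33, and 0.00182 with 4.34 without knockout 4; for Mt1 the difference was 2.08 (adjusted p = 0.192), and 2.82 (0.00512, limma) without knockout 4.

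No marker of another cell type was called, except that with the slide as a block Sox9, on the cholangiocyte list, passed. In this bulk RNA fewer cells of a type and less RNA per cell cannot be told apart. The median differences were 0.22 for 16 Kupffer cell markers, 0.37 for 7 neutrophil, -0.08 for 13 lymphocyte, 0.00 for 14 endothelial, 0.05 for 15 stellate and fibroblast, and 0.27 for 9 cholangiocyte markers. The 8 exocrine pancreas markers had a median of 2.08, carried by knockouts 2 and 3. Adipose, erythroid and muscle markers, 6, 5 and 7 genes, had medians of -0.16, -0.18 and -0.07. The lists for growth hormone and IGF, acute phase, clock, cell cycle, ribosomal and respiratory chain genes had no call, with medians between -0.06 and 0.13. Of 22 ATF4 targets only Vldlr fell, and of 22 hepatocyte identity factors only Tbx3.

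The slides gave differences of unequal size. Slide 3 held controls and knockouts 1 and 2, and slide 4 held controls and knockouts 3 and 4. All 86 genes had the same sign on both slides. They were chosen by the difference over both slides together, so this agreement of sign was largely set by the choice. The difference was larger on slide 3 for 60 of them. With the slide as a block 132 genes were called (0.768%), 91 lower (0.530%) and 41 higher (0.239%), and 81 of the 86 were among them. Of the 86, Olig1, with -3.80 on slide 3 and -1.04 on slide 4, and Cyp2c38, with -4.74 and -2.97, were furthest apart. Serpina7 was larger on slide 4, with -1.92 and -3.45, while Oat gave -4.05 and -3.67. Slide 3 alone gave 119 calls and slide 4 alone none in limma, with 1115 genes at an unadjusted p under 0.05 there. Slide 3 holds knockouts 1 and 2, the livers apart on the first principal component; without them 40 genes were called, 37 of them among the 86.

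**Figure D4:**
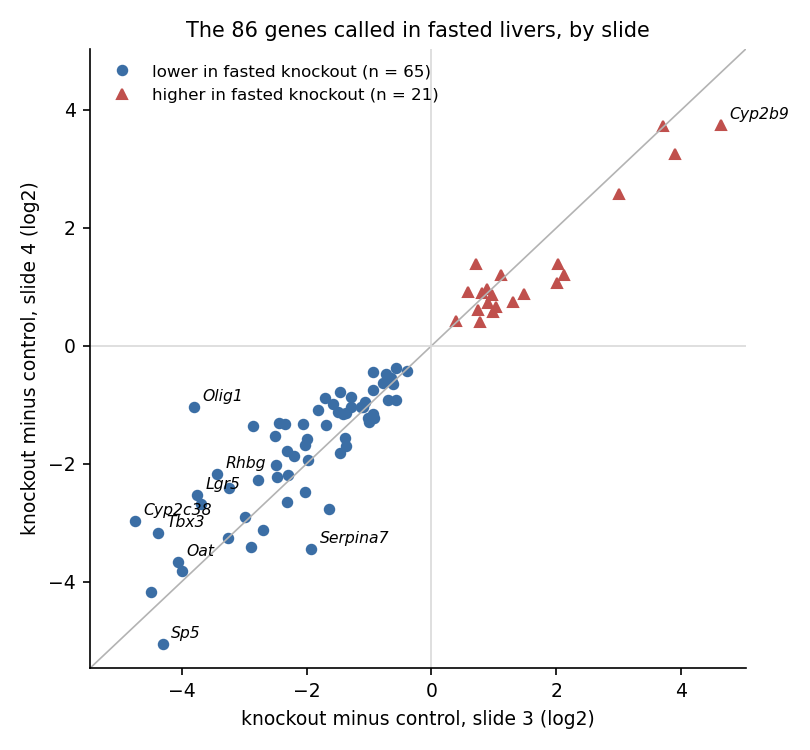
Difference between knockout and control (log2) of the 86 called genes on slide 3 (x axis) and slide 4 (y axis), 2 livers of either genotype per slide, with the line of equality. All points have the same sign on both axes, which the choice of genes over both slides largely sets. Of the 86, 60 are larger on slide 3.

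The fed livers, 3 knockouts and 3 controls from other mice, allow a reading of the same genes without the fast. Their arrays lay on slides 5 and 6, the fasted ones on slides 3 and 4, and the 14 adult arrays were scanned on 2 days. Where fed values are set against fasted ones, feeding therefore cannot be told apart from the slide. On the fed arrays 22.8% to 31.2% of spots were above background in the liver channel, fewer than on any fasted array. In fed livers 33 genes were called lower (0.192%) and 5 higher (0.0291%). Of the 65 genes that fell in fasted livers 60 were below 0 in fed livers and 23 were called lower there. Of the 21 that rose 19 were above 0 and 1 was called, Sdsl, at 0.86. Over all genes tested, 9579 of 17184 were above 0 in fed livers. Some genes that fell, among them Lgr5, Adgrg2 and Car2, were above background on no fed array, so their fed signs rest on weak signals. Oat fell by 3.89 and Lhpp by 4.33 in fed livers, close to the fasted values, and Glul fell by 3.82 against 2.94 in fasted livers. Slc13a3 was at -0.58 in fed livers, above background on none of the 6 arrays. Cyp2b9 and Cyp2b13, by contrast, gave -0.51 ± 0.79 (SE) and 0.30 ± 0.77 in fed livers. Their means in the fed controls were 5.59 and 3.63 against 0.95 and 0.84 in the fasted controls, while the fasted knockouts were at 5.13 and 4.42 and the fed knockouts at 5.07 and 3.93. Blvrb and Notum gave -0.53 and -0.46 in fed livers, where Notum was above background on none of the 6 arrays. The difference between the fasted and the fed change passed for no gene (0 calls in limma, 1128 at an unadjusted p under 0.05, 41 of them among the 86), so no gene can be said to change differently in fasting. Etnppl rose in fed livers by 1.27 (adjusted p = 0.0165, limma) and stood at 0.57 in fasted ones. The listed periportal genes had a median of 0.48 in fed livers, with 19 of 21 above 0.

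**Figure D5:**
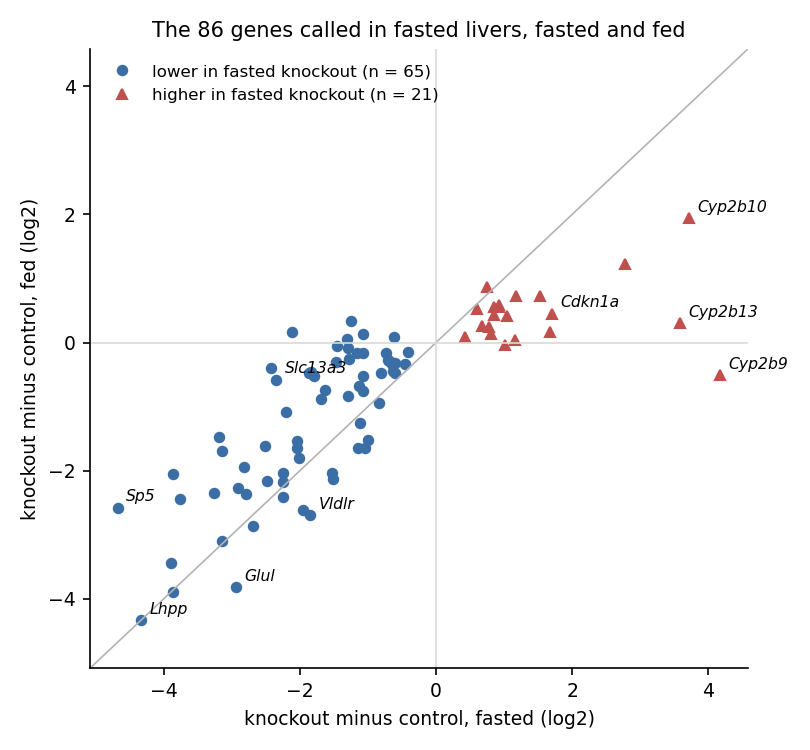
Difference between knockout and control (log2) of the 86 called genes in fasted livers (x axis, 4 against 4) and in fed livers (y axis, 3 against 3), with the line of equality. Oat and Lhpp lie on the line, Slc13a3, at -2.35 and -0.58, lies above it, and Cyp2b9 and Cyp2b13 lie near 0 on the fed axis.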

How the data were processed

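RNA of 14 adult livers (4 fasted control, 4 fasted knockout, 3 fed control, 3 fed knockout) was measured on 2-colour Agilent mouse arrays of design 014868. The deposited scanner files hold spot intensity in each channel and, per the file headers, were made with Feature Extraction 10.5.1.1 (protocol GE2_105_Dec08; mm9 positions); the submitters' processing notes name 8.5.1.1. The authors' deposited log10 ratios of red (reference) over green (liver) equal the scanner's LogRatio column on all 14 arrays, with array medians of 0 to 0.00612 (fasted) and 0.0356 to 0.0796 (fed); 8 columns of newborn samples in that table were not used.

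Median signals were corrected with normexp (offset 50), taking the array's median background where the scanner marked a local background as outlying, normalised within arrays by loess without control spots, and turned to log2 liver over reference (limma 3.58.1, R 4.3.3). Flagged spots were left out and spots of a probe averaged. Probes well above background in the liver channel on at least 3 of the 14 arrays were kept (25133 of 41174), and the brightest probe stood for a gene. RefSeq's table named 32843 probes, and 8331 kept the files' name. One mean per group was fitted to the 14 arrays (10 residual degrees of freedom), with two-sided moderated tests and Benjamini-Hochberg adjustment over 17184 genes. The liver or reference channel alone is log2 of the scanner's processed signal minus the array's 75th percentile of it, without an offset. Depth has no meaning for arrays, and the number of livers limits precision. The procedure was tested on simulated data. Promoter letters were counted with Python 3.11.15 and plots drawn with matplotlib 3.10.9.

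The comparison and the gene lists were chosen with earlier results of these data known. Named genes are Tcf7l2, up to 20 largest rises and 20 largest falls with adjusted p under 0.05, separate ranges and signal above background throughout a group, and from each list the members that passed or, where fewer than 3 did, those with the smallest adjusted p; others are marked in the text or serve as unselected examples of a list. Some genes are not reported here. Alternatives were the slide or the replicate number as a block, each slide alone, fasted arrays alone, other background and normalisation steps, the deposited ratio, other filters, the mean of a gene's probes, array weights, and each array left out; leaving out pairs of arrays was chosen after seeing the data.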

Additional observations from a re-analysis of the deposited data

Results flagged for a closer look

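In groups of 4 livers, a sample was set apart where its gap to the nearest other was too large a part of the group's range by Dixon's test at the 95% level. Chance sets apart about 1 in 20 groups, and here it was 10 of 162 groups of named genes and 8 of 80 groups of list means.

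Among genes that fell, Sp5 was 5.26 in control 3 against 4.02 to 4.14 in the other controls, and Serpina7 was 3.52 in knockout 2 against 0.57 to 0.93 in the other knockouts. Rdh9 was 1.65 in knockout 3 (others 1.00 to 1.05) and 8030488J09Rik -0.32 in the same liver (others -0.76 to -0.70). Blvrb was 1.82 in knockout 4 (others 1.44 to 1.49), and Tlr5 was 0.77 in knockout 2 (others 1.13 to 1.15). Among genes not called, Znrf3 was 0.36 in control 1 (others 0.74 to 0.80), Mvk 0.22 in control 3 (others 0.45 to 0.50), Scd1 2.30 in control 4 (others 3.54 to 3.58) and Got1 1.53 in knockout 2 (others 1.87 to 1.91).

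Among list means, skeletal muscle markers stood at 2.91 in control 1 (other controls -0.89 to -0.55) and 2.92 in knockout 3 (other knockouts -0.94 to -0.73). Lymphocyte markers were at 0.83 in control 2 (others -0.55 to -0.36) and erythroid markers at 3.05 in control 4 (others 2.51 to 2.59). PPAR alpha targets were at 4.36 in control 1 (others 4.59 to 4.63), and fatty acid synthesis genes at 1.54 in knockout 2 (others 1.66 to 1.67). Growth hormone and IGF genes were at 1.91 in control 1 (others 1.98 to 1.99) and at 1.89 in knockout 4 (others 2.09 to 2.12).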

How the results depend on the processing

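Across 27 settings, 81 named genes kept sign and side of the threshold in 1718 of 2184 pairs, fell back over the threshold with the same sign in 421 and passed it in 24; 21 pairs in 7 genes, none of them called, reversed. Against 86 calls (21 higher, 65 lower), the slide block gave 132 (41 higher), slide 3 alone 54 higher, slide 4 alone 0 (0 higher, 0 lower and 0 of 24 listed genes), local backgrounds kept 179 (150 higher, 29 lower) and array weights 32 higher. The 8 fasted arrays alone gave 61 calls (10 higher, 51 lower), with 54 of the 86 genes among them. With the slide as a block they gave 60 calls (13 higher, 47 lower), with 52 of the 86. Leaving out 1 array gave 61 to 138 calls (12 to 62 higher, 48 to 76 lower), with 12 and 13 higher without control 3 and control 2, and 138 (62 higher) without knockout 4. Without knockouts 1 and 2 there were 40 calls (7 higher, 33 lower, 15 listed genes), and without knockouts 2 and 3, 49 (9 higher, 40 lower). The replicate number as a block gave 30 calls (4 higher, 26 lower). Same-numbered livers correlated at 0 to 0.10 in their deviations, and other pairs at -0.28 to 0.21. These values cannot settle whether the numbers pair the mice. Reversed values were those of Cyp1a2 (median centring -0.15, liver channel -2.58, mean of probes -0.26, -0.02 to 0.13 with 1 array left out, lowest without control 1, without control 1 and knockout 3 -0.05), Cyp2c39 (local backgrounds 0.36, deposited ratio 0.54), Gulo (median centring -0.03, liver channel -1.22, mean of probes -0.05), Aqp9 (local backgrounds 0.58, deposited ratio 0.09, without knockouts 1 and 2 0.03), Etnppl (deposited ratio -0.30), Hsd17b13 (local backgrounds 0.14, liver channel 0.67, mean of probes 0.03) and G6pc (local backgrounds 0.60, liver channel 0.41, -0.08 to 0.01 with 1 array left out, highest without control 2, without knockouts 2 and 3 0.01). Apart from settings that fit fewer arrays, the cause of these shifts was not tested. Signals near background limit the falls of 9 called genes to a bound.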
